A study of Arabidopsis thaliana with 6 samples.

Results

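Transcripts of the cytokinin type-A response regulators ARR4, ARR5, ARR6, ARR7, ARR8, ARR9, ARR15 and ARR16, and of the cytokinin oxidase CKX4, were examined in shoots of Arabidopsis (*Arabidopsis thaliana*) after long-term salt stress. These 9 genes were chosen by locus, and a gene was taken as measured when a probe set naming it alone was found in the annotation of the Affymetrix ATH1 array or in a supplementary list of the study that pairs probe sets with genes. That was the case for 6 of the 9, namely ARR4 (AT1G10470), ARR5 (AT3G48100), ARR8 (AT2G41310), ARR15 (AT1G74890), ARR16 (AT2G40670) and CKX4 (AT4G29740), with 1 probe set each, among 14276 genes with a named probe set in all. For ARR6, ARR7 and ARR9 no named probe set was found, and they were not analysed here. Only 1995 rows of the supplementary list were at hand, which is not the whole list, so these counts do not show which genes the array itself covers. ARR15 and ARR16 were named through the array annotation. The other 4 were named only through the supplementary list (called the H2O2 list here). That list holds transcripts that responded to H2O2 in a separate experiment of the study. Genes named only through it are measured here because they responded to H2O2, so the measured genes are not a random part of the pathway.

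Both groups were wild-type Col-0 plants grown hydroponically in short days. Salt samples came from plants given 150 mM NaCl in the medium for 4 d (3 arrays), and control samples from plants in medium without NaCl (3 arrays). Treatment began in plants of 28 d, which is also the age in the labels, and the experiment is described as 3 independent biological replications of entire shoots. The labels give no harvest day for the control samples, so whether the groups had the same age at harvest cannot be read from them. As each RNA sample came from whole rosettes, fewer cells of a type and less RNA per cell cannot be told apart in any result below.

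Cytokinins are adenine-derived hormones that promote cell division and delay leaf senescence. They bind histidine kinase receptors in the membrane, and a phosphate is then passed through shuttle proteins (AHPs) to response regulators in the nucleus. Type-B regulators are transcription factors that switch on cytokinin target genes, among them the type-A regulators, which consist of little more than the phosphate-receiving domain and dampen the same pathway as a feedback. Cytokinin oxidases such as CKX4 remove the hormone by cleaving its side chain, and CKX4 is itself induced by cytokinin. The question put to the arrays was how transcripts of these negative elements differ in shoots after prolonged salt, a treatment the study used to bring on leaf senescence.

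The deposited values were log2 expression after robust multiarray averaging (RMA), and a difference is the salt mean minus the control mean on that scale. The words rose and fell are used only where limma's adjusted p over all 14276 genes was under 0.05. Of the 6 measured genes 4 fell with salt, CKX4, ARR8, ARR15 and ARR16, whereas ARR4 and ARR5 did not pass and none rose. Among all genes tested, 12.3% fell and 11.4% rose. The median difference was -0.57 over the 6 genes, compared with -0.03 over all genes. Of the 6 genes, 4 were named only through the H2O2 list. Over all genes so named 11.6% fell and 36.9% rose, with a median of 0.29. CKX4 differed at least 2-fold, as did 2.68% of all genes in that direction, while the 3 type-A regulators that fell did so by less.

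The largest difference was that of CKX4. Its log2 values were 6.50, 6.39 and 5.92 in salt replicates 1, 2 and 3, against 7.39, 7.46 and 7.69 in control replicates 1, 2 and 3. Every salt array was thus below every control array, with a gap of 0.89 between the groups, and replicate 3 was the lowest salt array. The mean was 6.27 ± 0.31 (SD, n = 3) in salt and 7.51 ± 0.16 (SD, n = 3) in control samples. This is a log2 difference of -1.24 (SE 0.17, adjusted p = 0.0037 from limma), or 0.422 times the control level. In the order of all 14276 genes by difference, CKX4 was number 185 from the lowest.

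ARR8 encodes a type-A regulator that dampens cytokinin responses when overexpressed. It had 4.91, 4.99 and 4.59 in salt samples, against 5.64, 5.58 and 5.27 in control samples, so that the groups did not overlap. As with CKX4, replicate 3 was the lowest salt array, but here it was also the lowest control array. The difference was -0.67 (SE 0.15, adjusted p = 0.018 from limma). The ARR8 signal was weak. Its mean over the 6 arrays was 5.16, below the 30th percentile of mean signal over all probe sets (5.45).

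ARR15, which with ARR7 is known for restraining cytokinin signalling in the shoot meristem and early embryo, was the most even of the genes that fell. Salt samples had 6.12, 6.27 and 6.10, against 6.57, 6.86 and 6.65 in control samples. All salt arrays lay within 0.17 of each other and below all control arrays. The difference was -0.53 (SE 0.10, adjusted p = 0.014 from limma), with an SD of 0.093 among salt and 0.15 among control arrays (n = 3 each).

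For ARR16 the groups nearly touched. This regulator has been described in the stomatal lineage of leaves as well as in roots. Its values were 6.73, 7.32 and 6.82 in salt samples, against 7.36, 7.59 and 7.73 in control samples. Salt replicate 2 was only 0.04 below the lowest control array, whereas the other salt arrays were well below. The difference was -0.60 (SE 0.18, adjusted p = 0.047 from limma), close to the threshold. Of 5 listed guard cell markers 3 were measured, and these 3 fell on the same arrays. Of all genes 12.3% fell, and of 6 measured mesophyll markers 4 fell. GC1 differed by -2.34, MYB60, a transcription factor gene of guard cells, by -1.32 and FAMA, which controls guard cell formation, by -0.62. The salt means of MYB60 (5.13) and FAMA (5.15) were below 5.45, the 30th percentile given above. The mean log2 value of these 3 markers ranged between 5.47 and 6.13 over the salt arrays and between 7.06 and 7.22 over the control arrays, and their part in the ARR16 result, or in those of CKX4, ARR8 and ARR15 on the same arrays, was not tested. Salt arrays lay below control arrays without overlap for CKX4, ARR8, ARR15 and ARR16, as they did for 23.8% of all genes.

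ARR4, whose protein binds the photoreceptor phytochrome B, did not differ between the groups beyond its spread. Its values were 10.54, 10.69 and 10.84 in salt samples, against 10.70, 10.68 and 10.63 in control samples. The groups overlapped, and the control arrays lay inside the range of the salt arrays. The difference was 0.02, and its 95% confidence interval of -0.21 to 0.25 leaves room for small changes in either direction (adjusted p = 0.91 from limma). The SD was 0.15 in salt and 0.036 in control samples (n = 3 each).

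ARR5, the classical early cytokinin-response gene whose promoter serves as a reporter of the hormone, varied more between replicates than between groups. It had 7.39, 6.79 and 6.51 in salt samples, against 6.55, 6.76 and 7.19 in control samples. Salt replicate 1 was the highest and salt replicate 3 the lowest of all 6 arrays. The difference was 0.06 with a 95% confidence interval of -0.53 to 0.66 (adjusted p = 0.89 from limma), an interval that reaches differences of the size found for ARR15. The plot of values by array shows these patterns side by side.

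**Figure D1:**
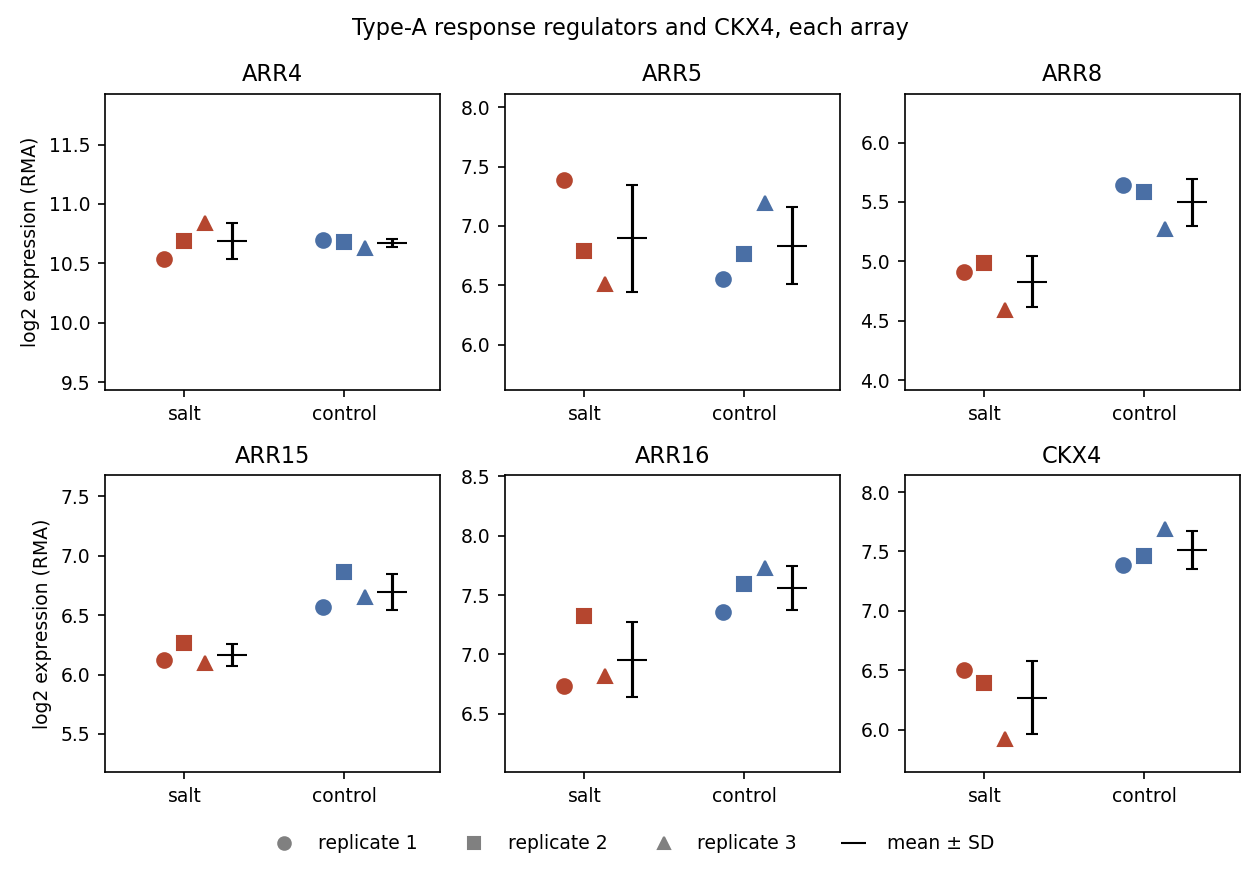
Log2 expression (RMA) of the 6 measured genes on each array, with salt at the left and control at the right of each panel, marker shape giving the replicate number and black bars the mean ± SD (n = 3). All panels span the same log2 range. CKX4, ARR8, ARR15 and ARR16 have every salt array below every control array, with the narrowest gap in ARR16 (0.04), while ARR4 and ARR5 overlap.

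The genes did not share 1 order of the arrays within a group. Among the salt arrays, replicate 3 was the lowest for ARR5, ARR8, ARR15 and CKX4 but the highest for ARR4, and replicate 1 was the lowest for ARR16. ARR5 was 0.49 above its salt mean in replicate 1, where CKX4 was 0.23 above and ARR16 0.23 below. With 3 arrays per group no correlation was computed. Precision is set by this small number of arrays, for which the smallest two-sided p of an exact permutation test is 0.1.

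Leaving out single arrays ended the calls of ARR8, ARR15 and ARR16 in part of the cases, but not that of CKX4. CKX4 kept a difference between -1.36 and -1.07 and passed in all 6 cases (highest adjusted p = 0.022 from limma). By limma, ARR8 had an adjusted p = 0.080 without control replicate 1 and an adjusted p = 0.079 without control replicate 2, and ARR15 an adjusted p = 0.055 without control replicate 2. ARR16 passed only without salt replicate 2, with adjusted p values of 0.078 to 0.14 when any other array was left out, and it did not pass with array weights (adjusted p = 0.12 from limma). The number of these 4 genes that passed was therefore 2 without control replicate 1 and 1 without control replicate 2. Without these control arrays the count of all genes that fell was also lower, 500 and 492 instead of 1750. ARR4 and ARR5 did not pass in any of these cases. The sign of ARR5 turned without salt replicate 1 (-0.18) and without control replicate 1 (-0.08), and that of ARR4 without salt replicate 3 (-0.055).

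**Figure D2:**
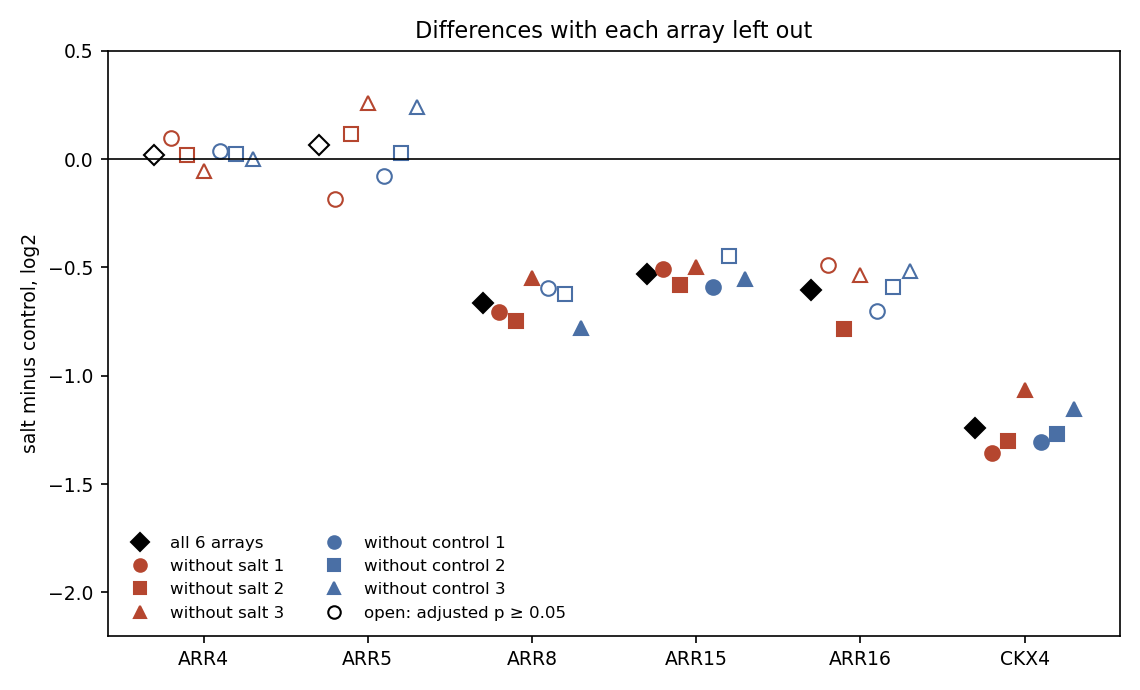
Salt minus control difference (log2) of each measured gene with all 6 arrays (black diamonds) and with 1 array left out (red, a salt array; blue, a control array; shape, replicate number). Filled symbols have an adjusted p under 0.05 from limma. CKX4 stays between -1.36 and -1.07 and is filled throughout, and ARR16 is open in 5 of 6 cases.

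To place these genes in their pathway, the other listed genes of cytokinin synthesis, transport, perception, signalling and inactivation were read from the same fit. Of 73 listed genes 21 were measured, 15 of them named only through the H2O2 list. Of these 21 genes 7 rose and 3 fell, with a median difference of 0.10. The median was 0.29 over all genes named only through the H2O2 list and -0.03 over those named by the annotation. Over the whole array, 36.9% of the 921 genes named only through the H2O2 list rose and 11.6% fell, compared with 9.65% and 12.3% of the 13355 genes named by the annotation. The risen cytokinin genes named only through the H2O2 list have to be read against the 36.9%. For the 6 named by the annotation, of which 2 rose, the share is the 9.65%.

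In hormone synthesis and transport the differences went both ways. IPT3, an isopentenyltransferase that makes the first dedicated step and responds to nitrate, had 6.73, 6.92 and 6.88 in salt samples, against 7.24, 7.42 and 7.39 in control samples, a fall of the groups without overlap (difference -0.51, SE 0.09, adjusted p = 0.011 from limma). LOG1 encodes an enzyme that releases the active base from its nucleotide. It had 8.11, 8.24 and 8.59 in salt samples, against 7.82, 7.82 and 7.63 in control samples, with a difference of 0.56 (SE 0.14, adjusted p = 0.028 from limma). CYP735A2, the hydroxylase that makes trans-zeatin forms, had a difference of -0.16 and LOG7 one of 0.05, and neither passed. ABCG14, the exporter needed to send cytokinin from root to shoot, had 6.71, 6.73 and 6.58 in salt samples, against 7.25, 7.33 and 7.29 in control samples. Both groups were tight, and ABCG14 fell by 0.62 on the log2 scale (SE 0.08, adjusted p = 0.0035 from limma). These are values of shoots, and its transcript in roots was not measured. PUP14, an importer that clears cytokinin from the cell wall space, had 9.96, 10.03 and 9.88 in salt samples, against 9.51, 9.49 and 9.75 in control samples. Its groups did not overlap, and the difference was 0.37 (SE 0.10, adjusted p = 0.037 from limma).

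Of the measured upstream signalling genes AHK3 and ARR2 passed, and both rose. Both were named only through the H2O2 list, and of all genes so named 36.9% rose. AHK3, the receptor with the main part in cytokinin control of leaf senescence, had 8.34, 8.54 and 8.45 in salt samples, against 7.87, 7.86 and 7.80 in control samples (difference 0.60, SE 0.09, adjusted p = 0.0044 from limma). ARR2, a type-B regulator described downstream of AHK3 in leaf longevity, had 7.51, 7.50 and 7.04 in salt samples, against 6.46, 6.41 and 6.48 in control samples. Its rise of 0.90 (SE 0.14, adjusted p = 0.0059 from limma) was larger than that of AHK3, a difference between genes that was not tested. The remaining type-B regulators measured, ARR10, ARR18 and ARR19, had differences of -0.13, -0.14 and -0.06 and did not pass. Neither did the receptor AHK4 with 0.37, the phosphotransfer genes AHP1 with 0.37 and AHP4 with -0.33, the type-C regulator ARR22 with -0.04, or KMD1 with 0.68, which encodes an F-box protein that targets type-B regulators for breakdown (adjusted p = 0.10 from limma). ARR18, ARR19, AHP4 and ARR22 had means below 5.45, the 30th percentile given above, in both groups. Their weak signal says little about a change. AHK3 and ARR2 thus rose on the arrays on which ARR8, ARR15 and ARR16 fell.

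Downstream, the only measured cytokinin response factor, CRF2, an AP2/ERF gene induced by the hormone, fell as ARR8, ARR15 and ARR16 did. It had 6.17, 6.57 and 6.14 in salt samples, against 6.83, 6.91 and 6.77 in control samples (difference -0.54, SE 0.13, adjusted p = 0.025 from limma). No other cytokinin oxidase than CKX4 was measured. Of the 4 measured glucosyltransferase genes, 3 rose and none fell. Their enzymes attach glucose to cytokinins, in part also to other substrates. Over all genes tested 11.4% rose. UGT85A1 was named only through the H2O2 list, of whose genes 36.9% rose. UGT73C1, UGT76C1 and UGT76C2 were named by the annotation, of whose genes 9.65% rose. UGT73C1 had 6.89, 6.15 and 7.63 in salt samples, against 4.68, 4.59 and 4.66 in control samples, a log2 difference of 2.25 (SE 0.33, adjusted p = 0.0052 from limma). The salt arrays differed by up to 1.48 among themselves, yet all lay far above the control arrays. Its control signal was weak (under 5.45, the 30th percentile given above), which makes the size of the difference uncertain. UGT85A1, which acts on trans-zeatin, had 10.42, 9.95 and 10.52 in salt samples, against 8.24, 8.65 and 8.94 in control samples, a difference of 1.69 (SE 0.21). UGT76C2, an N-glucosyltransferase, had 8.47, 7.89 and 7.82 in salt samples, against 7.01, 7.25 and 7.25 in control samples, a difference of 0.89 (SE 0.18). UGT76C1, of the same subfamily as UGT76C2, had a difference of 0.10 (SE 0.07) and did not pass. Transcripts of CKX4 and of these 3 glucosyltransferase genes thus moved in opposite directions. Probe sequences were not used here, so shared signal between related glucosyltransferase genes was not tested.

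**Figure D3:**
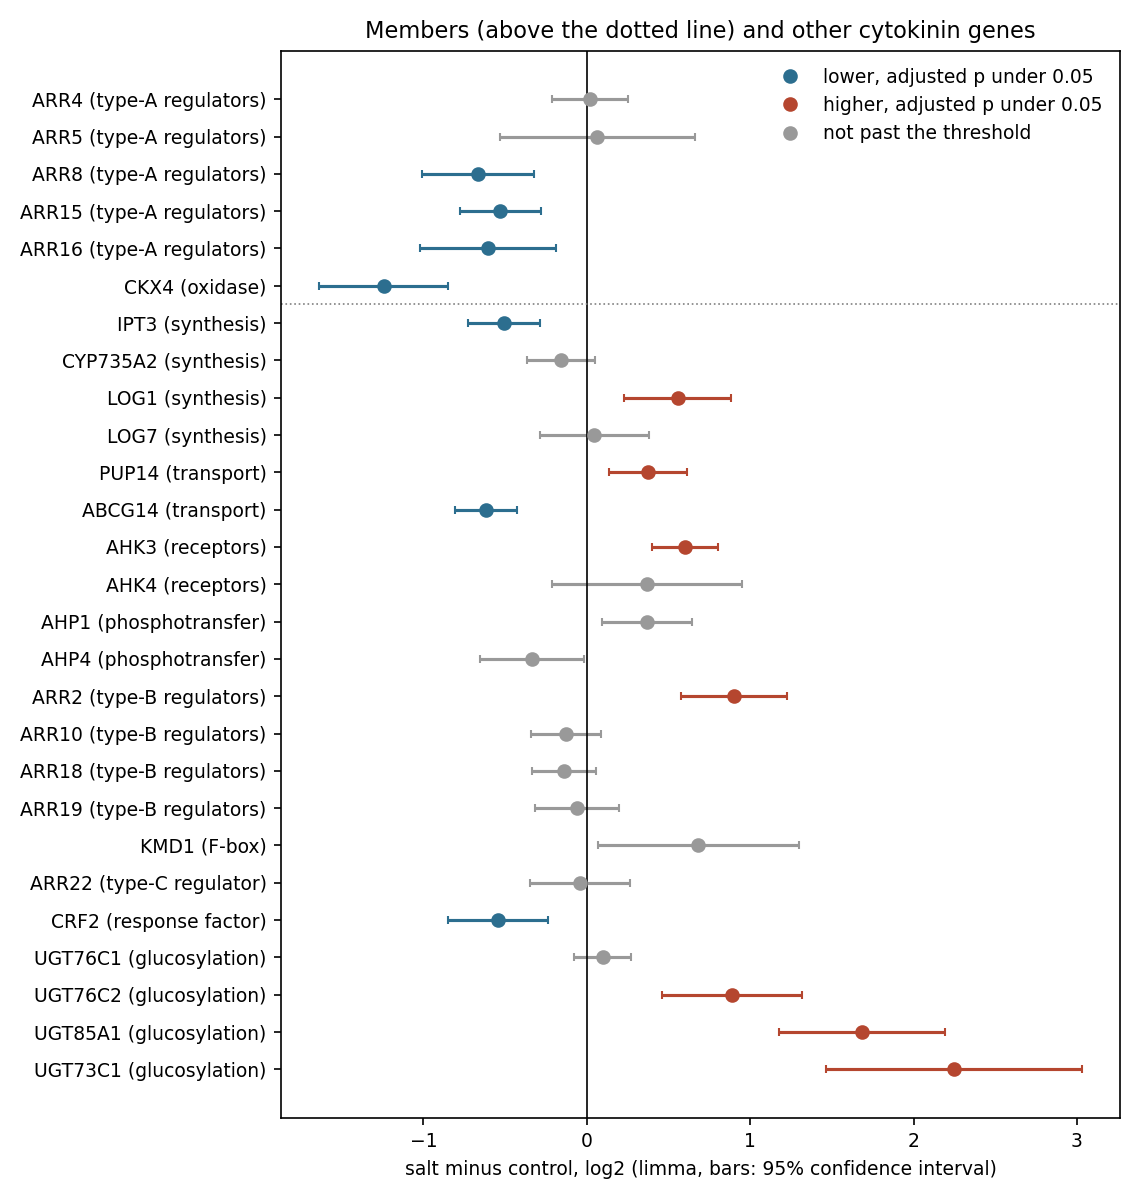
Salt minus control difference (log2) with its 95% confidence interval from limma for the 6 measured genes (above the dotted line) and 21 other cytokinin genes, in the order of their roles. Blue genes fell and red genes rose at an adjusted p under 0.05, and grey genes did not pass. CKX4 (-1.24) is the lowest and UGT73C1 (2.25) the highest of the 27 genes.

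Of these 10 calls 5, those of ABCG14, AHK3, ARR2, UGT85A1 and UGT73C1, held with any single array left out. CRF2 passed only with all arrays or without salt replicate 2 (adjusted p up to 0.10 from limma). IPT3 was lost without control replicate 2, LOG1 without any of the control replicates, UGT76C2 without control replicate 1 or 2, and PUP14 without salt replicate 1 or 2 or control replicate 1 or 2. Beyond these, KMD1 passed without salt replicate 1 (adjusted p = 0.036 from limma) and AHP1 without salt replicate 2 (adjusted p = 0.048 from limma).

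The genes whose values over the 6 arrays lay nearest to the mean of the type-A regulators were found by the root mean square difference. Each gene was first centred on its own mean. The mean profile of the 5 measured type-A regulators had a difference of -0.34 between salt and control. It includes ARR4 and ARR5, which did not pass, and its difference is smaller in size than those of ARR8, ARR15 and ARR16. Nearest to it were AT2G29820 (root mean square difference 0.028), AT5G53620 (0.032), AT3G49930 (0.032), AT4G14240 (0.033) and TO2, a thioredoxin gene (0.035). Nearest to CKX4 were AT2G44940 (0.097), AT5G03120 (0.10), CYP86A2, which encodes a fatty acid hydroxylase of cutin formation (0.10), AT5G05790 (0.10) and AT2G46630 (0.13). Their salt minus control differences were between -1.19 and -1.01. As these genes were picked for values near those of CKX4, similar differences follow from the choice. None of these neighbours was among the listed cytokinin genes.

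The samples carried leaf signals as labelled. LHCB4.1, a light-harvesting gene, had a log2 mean of 13.46 in salt and 13.68 in control samples, and 4 of 6 measured mesophyll markers fell with salt, the mean of the list ranging between 11.65 and 12.32 over salt and between 12.64 and 12.77 over control arrays. Of the 10 listed root markers 2 were measured, and neither changed by the test. Their list means were 4.94 to 5.12 over salt and 5.07 to 5.19 over control arrays. LRX1 was weak, with 4.23 in salt and 4.28 in control samples, so its lack of change says little. EXPA7 had 5.78 in salt and 5.94 in control samples. The shoot meristem marker CLV3 had 4.50 in salt and 4.56 in control samples and did not pass. Both means were below 5.45, the 30th percentile given above, so this weak signal says little about the meristem. None of the listed vascular or cell division markers was measured. The meristem, where type-A regulators act, was thus followed by CLV3 alone, and dividing cells were not followed. The 25S ribosomal RNA probe set was 2.19 higher in salt samples on the log2 scale, and the 3′ minus 5′ difference of actin was 3.50 ± 0.15 in salt and 3.19 ± 0.069 in control samples (SD, n = 3). For GAPDH this difference was lower in salt, with 0.24 ± 0.16 in salt and 0.43 ± 0.032 in control samples, and for ubiquitin it was 0.99 ± 0.021 in salt and 0.98 ± 0.0058 in control samples (SD, n = 3). The part of these in the results above was not tested. Array correlations over probe sets, which are not independent replicates, were 0.980 to 0.988 among salt arrays and 0.993 to 0.997 among control arrays.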

How the data were processed

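Shoots of control and salt-treated plants were hybridized to ATH1 arrays, 1 sample per array. The authors deposited log2 values per probe set, made with robust multiarray averaging in Bioconductor. Versions are not given in the sources used here, and the labels list GCRMA beside RMA. No further normalization was applied. Without the control probe sets 22746 remained, of which 13513 carried a single gene in GEO's annotation of the array and 921 took their name from the study's H2O2 list alone (1995 rows available). Symbols were updated through a reference gene table (TAIR10.1, names only). The probe set with the highest mean over 6 arrays stood for a gene, leaving 14276 genes.

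The groups were compared by limma (lmFit and eBayes, without a pairing term), p-values were adjusted by Benjamini and Hochberg's method across all genes, and the threshold was 0.05. The fit was tested on simulated data. The members, the gene lists and the tests were chosen with earlier results of these data known. Genes named were all 9 members, any measured gene of the cytokinin and marker lists, and the 5 genes nearest in profile to the type-A mean and to CKX4. Alternatives were each array left out, the replicate number as a block, quantile normalization, median centring, filters on mean signal at its 30th and its 50th percentile, eBayes with trend and robust estimation, array weights, names from the annotation alone, all probe sets, the lowest probe set of a gene and a 2-fold minimum. No depth exists for arrays. Sequences and coordinates were not used here. The fits used limma 3.58.1 with statmod 1.5.0 under R 4.3.3, and tables and figures were made in Python 3.11.15 with matplotlib 3.10.9, numpy 2.4.6 and pandas 2.3.3.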

Additional observations from a re-analysis of the deposited data

Results flagged for a closer look

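Control probe sets lie outside the comparison of genes, and those of the plant's own transcripts with every salt array above every control array are given here. The 25S ribosomal RNA probe set was 2.19 higher in salt samples on the log2 scale (9.59 ± 0.60 in salt and 7.40 ± 0.38 in control samples, SD, n = 3). The ubiquitin probe sets were 0.36 (3′), 0.35 (5′) and 0.20 (middle) higher, and those of GAPDH 0.19 (5′) and 0.19 (middle). The actin probe sets went the other way, with every salt array below every control array and differences of -0.15 (3′), -0.46 (5′) and -0.27 (middle), and 5S ribosomal RNA had -0.82 with overlapping groups. No test was run on them.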

How the results depend on the processing

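Of the 4 members that fell, 1 passed when at least a 2-fold difference was required as well (CKX4), 1 of 2 genes left above the 50th percentile of mean signal (ARR16), and 2 of 2 genes with names from the annotation alone (ARR15 and ARR16). With 1 array left out the count ranged between 1 and 4. The other cytokinin genes had 0 lower and 2 higher of 6 with names from the annotation alone, and 1 to 3 lower and 4 to 7 higher with 1 array left out, compared with 3 and 7. Counts of all genes were 492 to 1891 lower and 837 to 1701 higher with 1 array left out, compared with 1750 and 1629.
ARR16 had -0.42 with array weights and did not pass. With 1 array left out, differences ranged between -0.055 and 0.095 for ARR4, where the value without control replicate 3 was 0.00, between -0.18 and 0.26 for ARR5, -0.78 and -0.55 for ARR8, -0.59 and -0.45 for ARR15 and -0.79 and -0.49 for ARR16, and ARR4 had -0.0033 with median centring. Signs also turned with 1 array left out for LOG7 (range -0.078 to 0.18), ARR19 (-0.14 to 0.0083) and ARR22 (-0.16 to 0.037), and that of ARR22 with array weights (0.026). Over all settings, 73 of 87 values of members kept direction and side of the threshold. The cause of these changes was not tested.
Deviations of salt and control arrays with the same replicate number correlated at -0.124, 0.052 and -0.139 across genes. With 3 arrays per group this cannot show whether the plants were handled in pairs by that number. With the number as a block, 4 members fell, LOG1 (adjusted p = 0.067 from limma) and PUP14 (adjusted p = 0.086) did not pass and KMD1 did (adjusted p = 0.018), and 3 other cytokinin genes were lower and 6 higher. With array weights 9 other cytokinin genes were higher, AHP1 and KMD1 beside the 7. The weak signal of ARR8 put it below both signal filters, so it has no value under them. ARR5, ARR15 and CKX4, with means of 6.87, 6.43 and 6.89, lay below the 50th percentile (6.92) and have no value under that filter.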
